A study of Homo sapiens with 18 samples.

Results

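The 78 genes described here encode the proteins of the mitochondrial ribosome whose symbols begin with MRPL (large subunit) or MRPS (small subunit). They were taken by symbol alone, as every row that matched the pattern of MRPL or MRPS followed by a number and, in some names, a letter from A to C. That gave 78 of 60683 gene rows in each of 2 tables, and no measured value entered the choice. By textbook assignment 26 belong to the small subunit and 51 to the large subunit, 2 of which, MRPS30 and MRPS18A, carry small-subunit names. The last, MRPS36, is no longer counted as a ribosomal protein.

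RNA was measured by poly(A)-selected sequencing in 18 libraries of the human colorectal carcinoma cell line HCT-116, in 6 groups of 3. The first table held actin (ACTB) knockout cells with a stable empty construct (Actin KO), wild-type actin (ACTB-WT) or an actin with the H73A change (ACTB-mut), so all 3 groups lack endogenous ACTB by their labels. H73A removes the histidine that SETD3 methylates. The other table held control cells (SETD3 CT) beside 2 lines without SETD3, the actin methyltransferase (SETD3 KO1 and SETD3 KO2), with the actin gene unedited as far as the labels say. The labels name neither the promoter of the constructs nor whether a knockout line is 1 clone. Whether replicates came from separate cultures is not stated, and p-values then measure only the spread between these samples, which may be technical.

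Total counts ran from 3389586 to 11652967 a library, and each library is precise only as far as its counts allow: 1 CPM (a count scaled to library size, with TMM factors from here on) stood for 3.39 counts in the shallowest before scaling. ACTB RNA was at 14.9 to 24.9 CPM for Actin KO, 23.2 to 31.0 for ACTB-WT and 32.04 to 47.0 for ACTB-mut, against 662 to 1456 in the SETD3 table. SETD3 RNA was at 14.0 to 36.0 CPM for SETD3 CT, 6.34 to 17.1 for KO1 and 15.6 to 27.7 for KO2. ACTB RNA was thus low in all 3 groups that share the ACTB knockout label, by a comparison between tables that were normalised separately. It does not check the add-back labels. SETD3 RNA does not check the SETD3 knockout labels, as both lines overlapped SETD3 CT. Every direction given here rests on the labels. Summed markers of colon carcinoma epithelium (10 genes) lay between 6406 and 10590 CPM in each library. Of these 10, CDX1 was at 0 in every group and CDH17 in ACTB-mut, SETD3 CT, KO1 and KO2. VIL1 was at 0 in SETD3 CT and KO2, and LGALS4 in KO1. Fibroblast, blood, neural and liver-kidney marker sums did not exceed 15.4 CPM. Replicate 3 of SETD3 KO2 carries the cell line label HCT-117 and was kept in its group.

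Mitochondrial ribosomes translate the few proteins encoded in mitochondrial DNA, all of them parts of the oxidative phosphorylation complexes. Their ribosomal RNAs come from the mitochondrial genome, whereas every ribosomal protein is encoded in the nucleus, made in the cytosol and imported. The protein set includes counterparts of bacterial ribosomal proteins and others found only in mitochondria. The promoters of such genes are known for sites of the factors NRF1 and YY1 and of the ETS family, to which GABPA belongs.

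The genes lay on 21 chromosomes. The RefSeq promoter table (GRCh38.p14) held 69 of the 78, as windows of 300 bases from 250 before to 50 after the start, and the first window of each gene was searched on both strands. The ETS core CCGGAAG (reverse CTTCCGG) stood in 29 of 69 member windows (42.0%), against 19.5% of the 10091 tested genes with a window and 10.7% of all 27305 genes. The YY1 core AAGATGGC (reverse GCCATCTT) stood in 20 (28.99%), against 5.44% and 3.03%. In 15 of these 20 the core lay on the gene's own strand 7 to 36 bases after the start. The NRF1 core GCGCATGC (reverse GCATGCGC) stood in 6 (8.70%), against 5.48% and 3.27%. Matches of different cores may overlap by a few letters. A plain CCAAT (reverse ATTGG) stood in 28.99% of member windows, 37.0% of tested genes and 35.7% of all genes. At least 1 of the ETS, YY1 and NRF1 cores was found in 42 of 69 windows (60.9%), against 27.3% of tested genes. The median level was 144 CPM for the 29 genes with the ETS core and 99.5 CPM for the 40 without. It was 135 CPM for the 20 genes with the YY1 core and 112 CPM for the 49 without. For NRF1 it was 140 CPM for the 6 with the core and 112 CPM for the 63 without. These are matches of letters, not sites shown to be bound.

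The 250 bases before the start are printed for 4 members, 5′ to 3′ on the gene's strand, with ETS, YY1 and NRF1 cores in capitals. MRPL12 (chr17:81703117-81703366, plus strand) and MRPS34 (chr16:1773135-1773384, minus strand) had the highest levels of all members. MRPL11 (chr11:66438849-66439098, minus strand) had the lowest unadjusted p of any member in the SETD3 table, and MRPL51 (chr12:6493263-6493512, minus strand) in the actin table. MRPS34 holds 3 ETS cores at positions -71, -29 and -19 from the start, and MRPL51 holds 2 at -119 and -104. MRPL11 and MRPL12 hold none of the 3 cores in these bases.
MRPL12: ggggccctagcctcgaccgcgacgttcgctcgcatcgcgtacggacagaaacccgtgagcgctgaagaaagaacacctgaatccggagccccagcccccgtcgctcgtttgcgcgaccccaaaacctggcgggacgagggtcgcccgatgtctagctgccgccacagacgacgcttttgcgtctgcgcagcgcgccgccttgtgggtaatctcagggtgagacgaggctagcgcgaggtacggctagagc
MRPS34: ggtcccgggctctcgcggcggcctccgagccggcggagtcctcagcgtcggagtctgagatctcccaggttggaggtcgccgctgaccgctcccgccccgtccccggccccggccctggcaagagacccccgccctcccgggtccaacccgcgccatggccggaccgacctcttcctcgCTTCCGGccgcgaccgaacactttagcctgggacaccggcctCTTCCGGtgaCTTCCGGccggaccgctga
MRPL11: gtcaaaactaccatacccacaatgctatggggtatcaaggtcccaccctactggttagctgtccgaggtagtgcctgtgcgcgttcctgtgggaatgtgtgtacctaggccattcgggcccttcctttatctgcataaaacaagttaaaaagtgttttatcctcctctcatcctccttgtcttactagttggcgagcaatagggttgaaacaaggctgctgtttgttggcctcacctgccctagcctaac
MRPL51: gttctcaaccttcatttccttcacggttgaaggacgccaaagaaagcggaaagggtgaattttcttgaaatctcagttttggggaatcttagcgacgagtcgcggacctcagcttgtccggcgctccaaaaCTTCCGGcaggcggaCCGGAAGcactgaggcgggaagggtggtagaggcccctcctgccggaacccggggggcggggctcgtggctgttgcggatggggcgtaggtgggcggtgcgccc

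All 78 genes had counts in both tables and all passed the filter on low counts in each, where 13882 and 13846 genes were tested. Levels spanned a 464-fold range of mean CPM over the 18 libraries, from MRPL12 at 855 CPM to MRPL50 at 1.84 CPM. A mean of at least 100 CPM was reached by 41 members, 25 lay between 20 and 100 CPM, and 12 lay under 20 CPM. The 5 most abundant transcripts, MRPL12, MRPS34, MRPS12, MRPL57 and MRPL23, held 25.04% of the members' summed CPM.

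Per kilobase of transcript, which allows a rough comparison between genes, MRPL12 stood first at 831 CPM per kb. The length used is the median over a gene's annotated transcripts, so it depends on which transcripts are annotated. MRPL12 encodes the stalk protein that recruits translation factors. MRPS34, a mitochondria-specific protein of the small subunit, followed at 727, MRPL23 of the exit tunnel at 705, MRPL34 at 479 and MRPS24 at 460 CPM per kb. At the low end were MRPL50 at 0.552, MRPS14 at 1.21, MRPL1 at 1.43, MRPL47 at 2.28 and MRPS31 at 3.32 CPM per kb. The medians of the subunits were 59.1 CPM per kb for the small and 105 for the large. The plot of levels by role shows that both extremes occur in several parts of the particle.

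**Figure D1:**
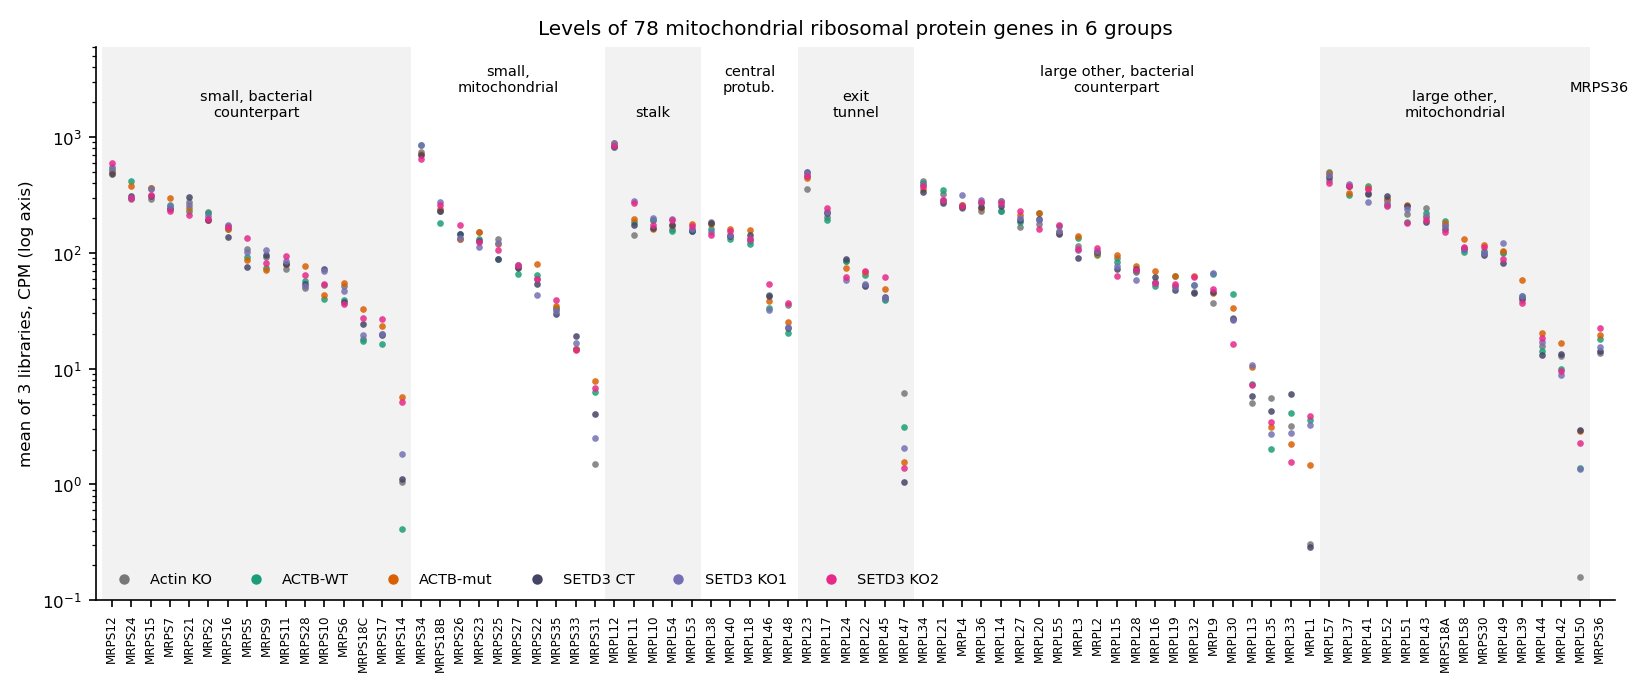
Mean level of each of the 78 genes in the 6 groups, in CPM on a log axis; each point is the mean of 3 libraries, genes are ordered by level within the parts of the ribosome named above them, and shading separates the parts. The 6 points of an abundant gene lie close together, while those of genes under 10 CPM spread over a factor of several.

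The order of levels was nearly the same in both tables (Pearson's r of log2 level 0.994 across the 78 genes), which share the cell line and the counting. Level followed the GC content of the transcripts (median over a gene's annotated transcripts). Across the 78 genes r of log2 level with GC was 0.76, and across all tested genes with a GC value it was 0.28 in the actin table and 0.30 in the SETD3 table. Members at 100 CPM or more had a median GC content of 54.1%, and members under 20 CPM of 39.8%. For all tested genes of the actin table the same medians were 56.3% and 48.3%. The correlation with log2 transcript length was -0.15. These are descriptions across genes, which share libraries and depth.

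**Figure D2:**
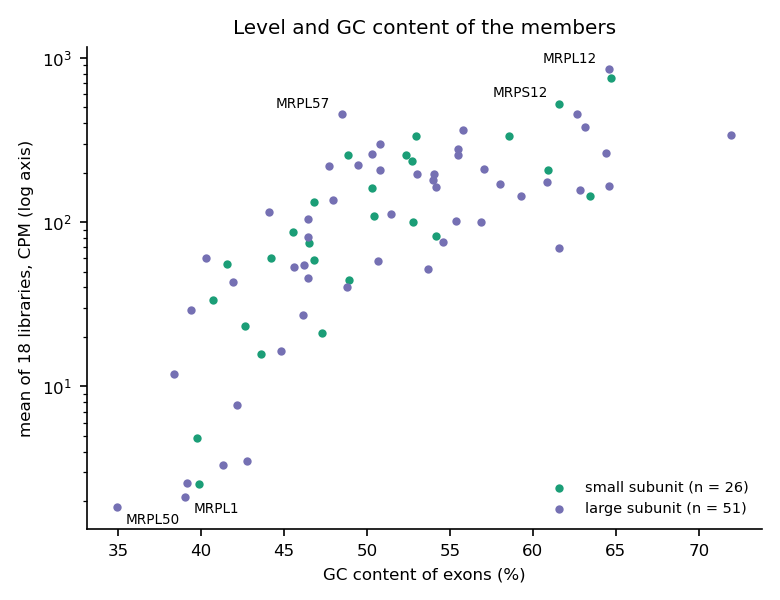
GC content of the exons (x, in %, median over a gene's transcripts) against mean level over 18 libraries (y, CPM on a log axis) for the genes of the small (n = 26) and large (n = 51) subunit. The genes with the lowest levels, MRPL50 and MRPL1 among them, lie at the lowest GC contents.

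Replicates of a group differed in the members about as much as in other genes of the same level in the actin table, and somewhat less in the SETD3 table. Between 100 and 1000 CPM the median biological coefficient of variation from edgeR was 15.1% for 41 members and 15.5% for all 1449 genes of the actin table, and 21.3% and 23.0% in the SETD3 table. From 1 to 5 CPM it was 85.1% for 6 members of the actin table (all genes 88.9%) and 92.5% for 7 of the SETD3 table (all genes 100.2%). The widest gap was at 5 to 20 CPM in the SETD3 table, with 40.2% for 5 members and 55.7% for all genes. The libraries also differed in their balance of GC-rich and GC-poor transcripts. The correlation of a library's log2 deviation with GC content over all genes ran from -0.35 (ACTB-mut replicate 1) to 0.31 (Actin KO replicate 3) in the actin table. In the SETD3 table it ran from -0.46 (SETD3 KO2 replicate 3 and SETD3 CT replicate 1) to 0.46, with the 2 shallowest libraries, SETD3 CT replicate 2 at 0.42 and SETD3 KO2 replicate 1 at 0.46, at the top.

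As a share of all counts the members held 1.17 to 1.21% in Actin KO, 1.18 to 1.23% in ACTB-WT and 1.25 to 1.26% in the H73A libraries. They held 1.12 to 1.16% in SETD3 CT, 1.26 to 1.30% in KO1 and 1.17 to 1.24% in KO2. The libraries of ACTB-mut lay above those of Actin KO and ACTB-WT, and both knockout lines lay above SETD3 CT. After TMM scaling the summed level was 11827 ± 191 CPM for Actin KO, 12186 ± 405 for ACTB-WT and 12493 ± 122 for ACTB-mut (SD, n = 3). In the SETD3 table it was 11749 ± 472 CPM for SETD3 CT, 12515 ± 632 for KO1 and 12074 ± 562 for KO2, and on this scale the libraries of both knockout lines overlapped those of SETD3 CT. The ratio of small-subunit to large-subunit share stayed between 0.471 and 0.541 in the 18 libraries. In bulk RNA, fewer cells of a kind and less RNA per cell cannot be told apart.

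**Figure D3:**
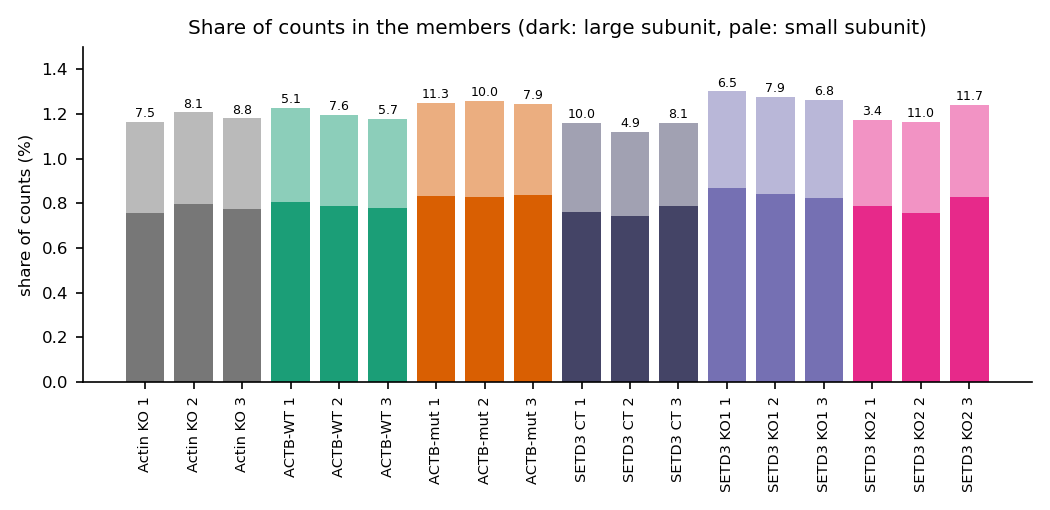
Share of all counts (y, %) held by the members in each of the 18 libraries, stacked as large subunit (dark) and small subunit (pale); numbers above the bars are total counts (M). The 3 ACTB-mut and the 3 SETD3 KO1 libraries have shares of 1.25% or more, and the other 12 libraries stay at 1.24% or less.

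None of the 78 genes passed the threshold (Benjamini-Hochberg adjusted p below 0.05 over all tested genes, edgeR quasi-likelihood F test) in any of the 7 comparisons. Summed over the 7, members had an unadjusted p below 0.05 in 45 instances by edgeR, 54 by DESeq2 and 55 by limma-voom. These totals alone do not set the members apart from other genes. The shares of all tested genes are given with each comparison below for edgeR, and were not counted at an unadjusted p for DESeq2 and limma-voom. DESeq2 called 1 member in 1 comparison (MRPL51, described with its values in a later paragraph) and limma-voom called 0. The data were precise enough to bound many of these changes: the 95% confidence interval of the log2 change lay within ±1, which is a 2-fold change either way, for 50 to 62 of the 78 members depending on the comparison. In the comparison of ACTB-WT with Actin KO this held for 79.5% of members against 31.2% of all tested genes.

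Wild-type actin against the empty construct left the members centred on 0. With ACTB-WT minus Actin KO, 39 log2 changes were above 0 and 39 below, with a median of -0.00 (all tested genes -0.01). edgeR called 0 members against 1.12% of all tested genes. At an unadjusted p below 0.05, 7 members (8.97%) were higher and 4 (5.13%) lower, against 5.05% and 6.18% of all tested genes, so the shares were near the background. DESeq2 and limma-voom called 0, with 14 and 13 at unadjusted p below 0.05.

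H73A actin against the empty construct gave a small shift to higher values. With ACTB-mut minus Actin KO, 52 changes were above 0 and 26 below, with a median of 0.14 (all tested genes 0.03). edgeR called 0 members against 0.922% of all tested genes. At an unadjusted p below 0.05, 11 members (14.1%) were higher and 1 (1.28%) lower, against 5.09% and 6.41% of all tested genes. DESeq2 and limma-voom called 0, with 14 and 15 at unadjusted p below 0.05. With offsets for GC content and length the median was 0.10 and that of all genes 0.00.

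H73A against wild-type actin showed a similar shift on the first fit. With ACTB-mut minus ACTB-WT, 52 changes were above 0 and 26 below, with a median of 0.11 (all tested genes 0.02). edgeR called 0 members against 1.24% of all tested genes. At an unadjusted p below 0.05, 7 (8.97%) were higher and 2 (2.56%) lower, against 6.01% and 5.99%. DESeq2 called 1 and limma-voom 0, with 10 and 11 at unadjusted p below 0.05. In a fit with offsets for GC content and length the median of the members was 0.00 and that of all genes -0.03, and without replicate 3 of ACTB-WT it was 0.06. The ACTB-mut libraries had GC correlations of -0.35 to -0.11 and those of ACTB-WT -0.06 to 0.19. These 3 comparisons share their groups pairwise, so their values are not independent.

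The SETD3 knockout lines each had member medians close to 0. With SETD3 KO1 minus SETD3 CT, 51 changes were above 0 and 27 below, with a median of 0.06 (all tested genes -0.02). edgeR called 0 members against 0.0144% of all tested genes. At an unadjusted p below 0.05, 2 (2.56%) were higher and 0 lower, against 2.74% and 3%. With SETD3 KO2 minus SETD3 CT, 49 were above 0 and 29 below, with a median of 0.09 (all tested genes -0.01). edgeR called 0 members against 0.0578% of all tested genes, and 2 (2.56%) were higher and 2 lower at an unadjusted p below 0.05, against 2.68% and 2.28%. DESeq2 and limma-voom called 0 in both, with 3 and 2 (KO1) and 6 and 6 (KO2) at unadjusted p below 0.05.

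For the mean of both knockout lines minus SETD3 CT, 50 changes were above 0 and 28 below, with a median of 0.09 (all tested genes -0.03). edgeR called 0 members against 0.0433% of all tested genes, and 3 (3.85%) were higher and 2 (2.56%) lower at an unadjusted p below 0.05, against 2.82% and 2.87%. DESeq2 and limma-voom called 0, with 5 and 4 at unadjusted p below 0.05. KO2 minus KO1 gave 38 above 0 and 40 below, with a median of -0.01 (all tested genes 0.01). edgeR called 0 members against 0.0289% of all tested genes, and 1 (1.28%) was higher and 1 lower at an unadjusted p below 0.05, against 2.72% and 2.12%. DESeq2 and limma-voom called 0 there, with 2 and 4 at unadjusted p below 0.05. The medians rested in part on single libraries: without replicate 2 of SETD3 CT the KO1 median was 0.01 and the KO2 median 0.05, and without replicate 3 of SETD3 KO2 the KO2 median was 0.03. Without both of the shallowest libraries the medians were 0.02 (KO1), 0.06 (KO2) and 0.04 (mean), with 0 members called by edgeR.

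**Figure D4:**
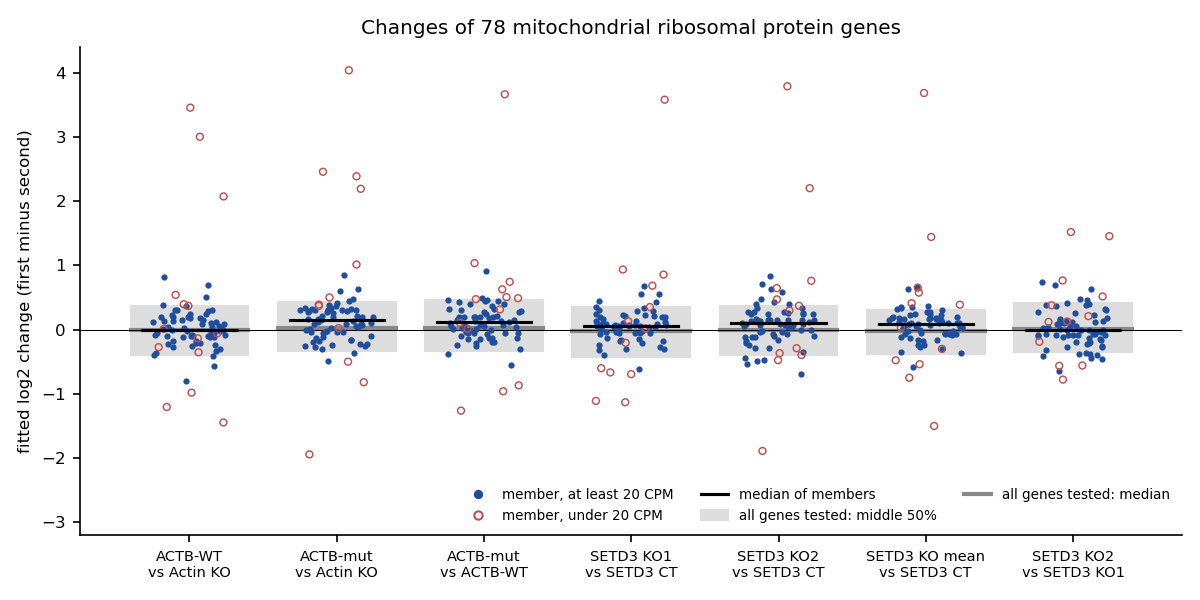
Fitted log2 change (y, first group minus second) of each member in the 7 comparisons; filled points are members with a mean of at least 20 CPM in the groups compared, open points members below that, black lines the members' median, and grey boxes and lines the middle 50% and the median of all tested genes. Nearly all abundant members lie within 1 of 0, and the values beyond 2 belong to members under 20 CPM.

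Among the stalk proteins, MRPL11, which in bacteria has a counterpart at the base of the stalk where translation factors bind, had its own lowest mean in Actin KO in the actin table and in SETD3 CT in the SETD3 table. MRPL11 (ENSG00000174547, minus strand of chromosome 11 from 66435075 to 66466738 in GENCODE release 29, GRCh38) read 142, 124 and 163 CPM for Actin KO, 183, 180 and 195 for ACTB-WT, and 186, 186 and 212 for ACTB-mut. Every add-back library was above every Actin KO library. The share of all tested genes whose libraries separated without overlap was not counted in any comparison. Here and below, such separation therefore does not set a named gene apart, and most named genes were chosen for their large changes. The log2 change was 0.38 (SE 0.14, adjusted p = 0.269) for ACTB-WT and 0.44 (SE 0.14, adjusted p = 0.181) for ACTB-mut, against the same Actin KO libraries. In the SETD3 table it read 209, 158 and 155 CPM for SETD3 CT, 284, 266 and 285 for KO1, and 272, 224 and 316 for KO2. Again no knockout library overlapped the control. KO1 had a log2 change of 0.68 (SE 0.20, adjusted p = 0.608) and KO2 one of 0.64 (SE 0.20, adjusted p = 0.633), against the same 3 control libraries. For the mean of the lines it was 0.66 (SE 0.17, adjusted p = 0.425). None of these passed the threshold by edgeR. Over all alternatives the adjusted p for the mean ran from 0.0501 (DESeq2) to 0.994 (replicate block).

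Against Actin KO and SETD3 CT the fitted changes of the other stalk genes were smaller than those of MRPL11. In ACTB-mut against ACTB-WT and in KO2 against KO1 that of MRPL10 was the largest of the stalk, and MRPL11 was at 0.07 and -0.04 on the log2 scale. MRPL12 ran from 642 to 1151 CPM over the 18 libraries without separating any groups, and was as high as 1151 CPM in the shallowest library, SETD3 KO2 replicate 1. MRPL10, the protein that holds MRPL12 on the ribosome, was at 193 ± 18.5 CPM in ACTB-WT and 162 ± 24.2 in ACTB-mut (SD, n = 3), a log2 change of -0.25 (SE 0.19, adjusted p = 0.682 by edgeR). All 5 stalk genes had log2 changes above 0 in KO1 and 4 of 5 in KO2, against the same controls.

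In the central protuberance, a part of the large subunit that contacts the small one, MRPL48 or its partner MRPL46 had the largest change in every comparison except ACTB-mut against ACTB-WT, where MRPL18 had it. MRPL48 read 42.7, 36.4 and 28.3 CPM for Actin KO, 24.2, 13.4 and 24.0 for ACTB-WT, and 19.0, 31.3 and 25.8 for ACTB-mut. The ACTB-WT libraries all lay below Actin KO (log2 change -0.81, SE 0.31, adjusted p = 0.307), while those of ACTB-mut overlapped it (-0.49, SE 0.31, adjusted p = 0.614). MRPL46 read 47.7, 49.0 and 30.7 CPM for SETD3 CT, 35.5, 33.8 and 27.3 for KO1, and 56.0, 51.4 and 53.6 for KO2. KO2 lay above KO1 without overlap (log2 change 0.74, SE 0.28, adjusted p = 0.999), and KO1 overlapped the control. MRPL38, MRPL40 and MRPL18, the abundant members of the group, had group means between 120 and 183 CPM.

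At the exit tunnel, through which the growing protein leaves, MRPL24 had the largest fall in KO1 of all members at 20 CPM or more. It read 79.9, 103 and 83.6 CPM for SETD3 CT, 43.4, 64.96 and 64.92 for KO1, and 69.1, 36.4 and 78.5 for KO2. All 6 knockout libraries were below the 3 controls, with a log2 change of -0.58 for the mean of the lines (SE 0.26, adjusted p = 0.860 by edgeR). MRPL45, which holds the ribosome at the inner membrane, was at 41.9 ± 2.69 CPM for SETD3 CT and 62.5 ± 24.6 in KO2 (SD, n = 3), a log2 change of 0.58 (SE 0.30, adjusted p = 1.00).

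Of the other large-subunit proteins, MRPL51 (ENSG00000111639, minus strand of chromosome 12 from 6491886 to 6493841), found only in mitochondria, had the lowest p of any member in the actin table. It read 192, 242 and 215 CPM for Actin KO, 163, 205 and 183 for ACTB-WT, and 265, 244 and 264 for ACTB-mut. ACTB-mut lay above both other groups without overlap, and the log2 change from ACTB-WT was 0.49 (SE 0.13, adjusted p = 0.103 by edgeR). DESeq2 gave 0.47 (SE 0.14, adjusted p = 0.0394), the 1 call by any tool, and over all alternatives the adjusted p ran up to 0.456. In the SETD3 table MRPL51 read 272, 239 and 245 CPM for SETD3 CT, 239, 243 and 239 for KO1, and 143, 190 and 208 for KO2, which lay below both other groups. The log2 change from SETD3 CT to KO2 was -0.48 (SE 0.19, adjusted p = 0.874). MRPL51 shares exon bases with NCAPD2 on the other strand (median 184 CPM), and the strand setting of the counting is not given, so reads of the pair may not be told apart.

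MRPL9, with a bacterial counterpart, read 31.95, 46.9 and 32.6 CPM for Actin KO and 47.8, 58.7 and 91.1 in ACTB-WT. The groups did not overlap (log2 change 0.83, SE 0.26, adjusted p = 0.195), but ACTB-mut at 53.8, 42.3 and 38.8 CPM overlapped both. MRPL9 overlaps the antisense gene AL589765.7 (median 62.2 CPM). MRPL49 read 93.4, 71.1 and 80.6 CPM for SETD3 CT and 112, 124 and 125 in KO1, again without overlap (log2 change 0.56, SE 0.21, adjusted p = 0.809), while KO2 at 103, 78.03 and 86.5 overlapped the control. Its neighbour FAU, which overlaps it on the other strand, was at a median of 3415 CPM.

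**Figure D5:**
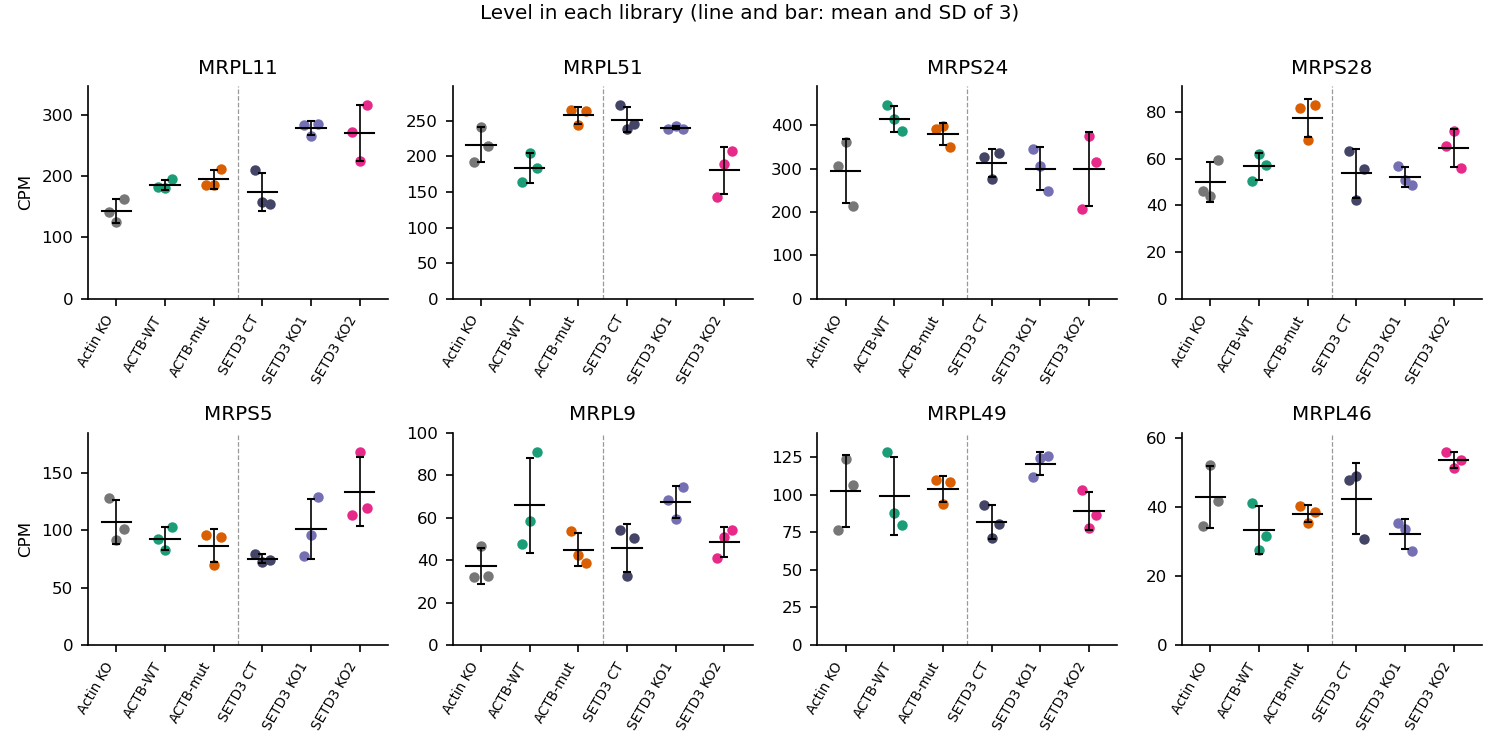
Level in CPM (y) of 8 members in each library of the 6 groups (points), with the mean (line) and SD (bars) of 3 libraries; the dashed line separates the actin table from the SETD3 table, which were normalised separately. MRPL11 is lowest in Actin KO and in SETD3 CT within its table, and MRPL51 is highest in ACTB-mut and lowest in SETD3 KO2.

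In the small subunit, MRPS24 (minus strand of chromosome 7 from 43866558 to 43869893), MRPS28 and MRPS5 (minus strand of chromosome 2 from 95087207 to 95149434), all with bacterial counterparts, had the lowest p of a comparison or of its subunit. MRPS24 read 306, 361 and 215 CPM for Actin KO, 446, 414 and 386 for ACTB-WT, and 390, 399 and 350 for ACTB-mut. ACTB-WT lay above Actin KO (log2 change 0.50, SE 0.16, adjusted p = 0.189, the lowest of that comparison), and ACTB-mut overlapped Actin KO by 1 library (0.37, adjusted p = 0.368). MRPS28 read 46.3, 43.8 and 59.6 CPM for Actin KO, 50.5, 62.1 and 57.3 for ACTB-WT, and 81.5, 68.2 and 82.8 for ACTB-mut. ACTB-mut stood above both other groups, with a log2 change from Actin KO of 0.63 (SE 0.19, adjusted p = 0.173) and from ACTB-WT of 0.45 (adjusted p = 0.358).

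MRPS5 read 79.4, 72.0 and 74.5 CPM for SETD3 CT, 77.98, 96.4 and 130 for KO1, and 113, 169 and 120 for KO2. KO2 lay above the control without overlap (log2 change 0.83, SE 0.25, adjusted p = 0.601), while KO1 overlapped it. MRPS21 read 277, 361 and 266 CPM for SETD3 CT and 232, 213 and 197 in KO2, which lay below the control (log2 change -0.49, SE 0.18, adjusted p = 0.839). MRPS18C was at 18.2 ± 9.16 CPM for Actin KO, 17.4 ± 10.5 for ACTB-WT and 32.6 ± 6.02 for ACTB-mut (SD, n = 3), with a log2 change of 0.84 from Actin KO (adjusted p = 0.476) and 0.90 from ACTB-WT (adjusted p = 0.423). Among the proteins specific to mitochondria, MRPS25 was at 132 ± 38.5 CPM for Actin KO and 89.1 ± 18.5 in ACTB-WT, with overlapping libraries (log2 change -0.56, adjusted p = 0.291). MRPS18B was at 231 ± 17.5 CPM for Actin KO, 183 ± 16.9 for ACTB-WT and 240 ± 11.2 for ACTB-mut (SD, n = 3). Its log2 change was -0.33 from Actin KO to ACTB-WT (adjusted p = 0.286) and 0.39 from ACTB-WT to ACTB-mut (adjusted p = 0.179). MRPS34 and MRPS12, the most abundant members of the subunit, were at 546 to 985 and 411 to 648 CPM over all libraries.

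The largest fitted folds belonged to members with few counts and were not measured well. MRPL1 read 0, 0.123 and 0.799 CPM for Actin KO and 2.19, 7.12 and 1.39 in ACTB-WT, and its log2 change of 3.46 had a 95% interval from 0.12 to 6.80. The 3 Actin KO libraries held 8 counts of it in all. MRPS14 read 0, 1.07 and 0.174 CPM with wild-type actin and 5.86, 5.29 and 6.09 CPM with H73A actin, and its change of 3.66 had an interval from 0.63 to 6.70. It overlaps CACYBP on the other strand, which was at a median of 124 CPM. MRPL50, MRPL47 and MRPS31 varied as widely between replicates. MRPS36 was at 13.7 to 22.3 CPM in the group means, with no adjusted p under 0.628 in any comparison.

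Shared sequence limits some of these values. By GENCODE release 29, 41 of the 78 members share exon bases with another gene, 16 of them on the same strand. Pseudogene rows (76) exist for 35 members, but only those of MRPS31 held more than 10% of the counts of the pair, at 17.1%.

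The mitochondrial ribosomal RNAs, which form the particle with these proteins, were at lower levels in both SETD3 knockout lines, with 0 calls by edgeR. These libraries were made from poly(A)-selected RNA, so the values cover only the ribosomal RNA that this selection kept. MT-RNR1, the small-subunit RNA, read 813, 1804 and 1099 CPM for SETD3 CT, 486, 406 and 626 with KO1, and 629, 374 and 405 with KO2. MT-RNR2, the large-subunit RNA, read 861, 1163 and 920 CPM for SETD3 CT, 532, 478 and 598 with KO1, and 634, 522 and 655 with KO2. For both RNAs every knockout library lay below every control library. The log2 change of MT-RNR1 was -1.29 (SE 0.29, adjusted p = 0.409 by edgeR) for KO1 and -1.40 (SE 0.29, adjusted p = 0.248) for KO2, against the same controls. That of MT-RNR2 was -0.87 (SE 0.18, adjusted p = 0.217 by edgeR) for KO1 and -0.70 (SE 0.18, adjusted p = 0.387) for KO2. All 4 had an unadjusted p below 0.05. DESeq2 called MT-RNR1 in KO1, KO2 and their mean and MT-RNR2 in KO1 and the mean, and limma-voom called MT-RNR1 in the mean alone (-1.27, adjusted p = 0.0472). Replicate 2 of SETD3 CT, the shallowest control library, had the highest level of both, and without it the edgeR change of MT-RNR1 was -0.92 (adjusted p = 0.809) for KO1 and -1.03 (adjusted p = 0.522) for KO2. In the 3 actin comparisons 0 were called by edgeR, DESeq2 and limma-voom (2 instances at an unadjusted p below 0.05 by edgeR), and replicate 3 of ACTB-mut stood apart with MT-RNR1 at 1491 CPM beside 555 and 603 in the others.

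Of 28 tested assembly and rRNA modification factors, edgeR called 1 over the 7 comparisons: MALSU1, which binds the large subunit as it assembles, fell in ACTB-mut from 226 ± 17.4 CPM for Actin KO to 148 ± 11.3 (SD, n = 3), with a log2 change of -0.61 (SE 0.13, adjusted p = 0.0383). ACTB-WT lay between them at 175 ± 16.5 CPM. Of all tested genes edgeR called 0.922% in ACTB-mut against Actin KO. DESeq2 and limma-voom called it too, and DESeq2 also called MRM2, an rRNA methyltransferase, in ACTB-WT and ACTB-mut against Actin KO. The MALSU1 call was lost without any 1 of the 6 libraries compared (log2 change -0.68 to -0.57, adjusted p from 0.0627 to 0.178), with only the 2 groups compared in the fit (0.0626) and with the replicate block (0.111). Of the translation factors edgeR called 0, with an unadjusted p below 0.05 in 14 of 122 tests over the 7 comparisons. The shares of all tested genes at that p stand above with each comparison. DESeq2 made 3 calls over the 7 and limma-voom 2. Both called SLIRP, a factor that stabilises mitochondrial mRNAs, higher in ACTB-mut against Actin KO and against ACTB-WT. The remaining DESeq2 call was MTRF1, higher in ACTB-WT against Actin KO. The 5 mitoribosome proteins with other names (DAP3, PTCD3, AURKAIP1, CHCHD1 and GADD45GIP1) gave 0 calls by edgeR, DESeq2 and limma-voom. Of 35 tests, 4, 3 and 3 had an unadjusted p below 0.05.

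Of 13 mitochondrially encoded mRNAs, 4 rose in ACTB-mut against Actin KO (MT-CYB by 1.41, MT-CO1 by 1.52, MT-ND2 by 1.08 and MT-ND5 by 1.08 on the log2 scale), and 4 against ACTB-WT, by edgeR. Of all tested genes edgeR called 0.922% and 1.24% in these comparisons. Over 13 settings of the analysis, MT-CYB against ACTB-WT was called in 13, while the others lost the call in 1 to 7, among them MT-ND2 against Actin KO without replicate 3 of ACTB-mut (adjusted p = 0.154). The median of the 13 mRNAs was 1.08 and 1.22, where the members' median was 0.14 and 0.11. In KO1 against SETD3 CT all 13 were below 0 with a median of -0.84, and 0 were called by edgeR (1 by DESeq2), beside a member median of 0.06. By edgeR 5 had an unadjusted p below 0.05, all lower, against 3% of all tested genes. In KO2 against SETD3 CT 10 of 13 were below 0 with a median of -0.44 and 0 called by edgeR, DESeq2 and limma-voom (1, 2 and 1 at an unadjusted p below 0.05).

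Cytosolic ribosomal protein genes, 79 of them tested, lay mostly above 0 in ACTB-mut, whose libraries both of the next comparisons share. Against Actin KO 57 were above 0 with a median of 0.22, and edgeR called 7, all higher: RPL31 by 1.02 on the log2 scale (SE 0.17, adjusted p = 0.00865), RPS27 by 1.34, and RPL23, RPL5, RPL27, RPLP0 and RPL41 by 0.31 to 0.70. Of all tested genes edgeR called 0.922% there. DESeq2 called 10 of the list higher and 1 lower, and limma-voom 11 higher and 1 lower. The RPL31 call held in 13 of 13 settings, and those of the other 6 in 3 to 8. Against ACTB-WT 54 were above 0 with a median of 0.12, and edgeR called RPL31 (0.84, adjusted p = 0.0211) and RPL27 (0.44, adjusted p = 0.0268), in 6 and 4 of 13 settings. In that comparison edgeR called 1.24% of all tested genes. DESeq2 called 6 of the list higher and 1 lower, and limma-voom 4 higher and 2 lower. The members' medians in the 2 comparisons were 0.14 and 0.11, in the same direction. In KO1 against SETD3 CT 72 of 79 were below 0 with a median of -0.22 and 0 called by edgeR (2 called by DESeq2 and 0 by limma-voom). By edgeR 23 of the 79 had an unadjusted p below 0.05, all lower, against 3% of all tested genes. In KO2 against SETD3 CT the median was -0.00, with 0 called by edgeR, DESeq2 and limma-voom (5, 3 and 8 at an unadjusted p below 0.05). In KO2 against KO1 68 of 79 were above 0 with a median of 0.19. There edgeR called 0, DESeq2 7 and limma-voom 2, all higher. By edgeR 16 of the 79 had an unadjusted p below 0.05, all higher, against 2.72% of all tested genes. The GC correlations of the libraries, given above, differed between these groups, and their part in the medians of these lists was not tested.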

How the data were processed

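The deposited values are expected counts per gene from RSEM 1.2.28 with Bowtie2 on GRCh38, after trimming with Trim Galore 0.4.5 and cutadapt 1.15, per the submitters' processing notes. The annotation release and the strand setting are not given in the sources used here. RSEM shares reads between genes with similar sequence, so expected counts need not be whole, and they were rounded.

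The 2 tables were analysed separately, with all groups of a table in 1 model, in edgeR 4.0.16 and R 4.3.3 (filterByExpr, TMM, robust quasi-likelihood F tests, two-sided). P-values were adjusted by Benjamini and Hochberg's method across the genes tested, with a threshold of 0.05. SE is the absolute log2 change divided by the square root of F. Levels are CPM scaled by TMM, given as mean ± SD of 3 libraries. Lengths, GC content and overlaps come from GENCODE release 29. Length and GC content are medians over a gene's protein-coding transcripts of the basic set, or over all its transcripts where it has none. The code was tested on simulated data. Alternatives used RLE scaling, DESeq2 1.42.0, limma-voom (limma 3.58.1), no filter, only the groups compared, GC and length offsets, a replicate block and leave-one-out.

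The naming rule took called members, the 4 largest rises and 4 largest falls per comparison among members with at least 20 CPM, the 5 highest and 5 lowest levels per length, members left out by the filter (0), and the highest level and the largest change of each part of the ribosome; of other lists it took called genes and the lowest p per comparison. Some of these are given by counts or ranges alone or left out, and MRPS18B was chosen after its values were seen. The lists of mitochondrial transcription and of transcription regulators of mitochondrial genes were not described. There edgeR and limma-voom called 0, with 6 of 35 and 2 of 52 tests at an unadjusted p below 0.05 by edgeR. DESeq2 called PPRC1, lower in ACTB-WT against Actin KO (edgeR log2 change -0.92, SE 0.22, adjusted p = 0.0557). The members and lists were chosen with earlier results of these data known.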

Additional observations from a re-analysis of the deposited data

How the results depend on the processing

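Over 194 alternative values of the member counts and medians, 189 stayed within 1.5 times (counts) or 1 SD between libraries (medians) of the first value. All first counts were 0, so a count stayed only where it was again 0. For medians near 0 the SD is a wide bound: the median of SETD3 KO1 against SETD3 CT, first 0.06, still stayed at 0.013. The total therefore says little about stability. In ACTB-mut against ACTB-WT, DESeq2 called 1 member where edgeR called 0, and the member median was 0.0046 with GC and length offsets (0.11 without). In ACTB-mut against Actin KO those offsets gave 0.10 (0.14 without). Leaving out 1 library at a time moved the median from 0.062 to 0.11 in ACTB-mut against ACTB-WT, and from 0.031 to 0.14 in SETD3 KO2 against SETD3 CT, with 0 members called by edgeR each time. The cause of these shifts was not tested.

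Replicate numbers are shared by the groups, and whether they mark a shared batch is not stated. Correlations of same-numbered libraries ran from -0.52 to 0.23, and those of differently numbered libraries of different groups from -0.47 to 0.50. Same-numbered libraries of Actin KO and ACTB-mut were at 0.07 to 0.10, and those of ACTB-WT with either group at -0.15 to -0.01. These are correlations of deviations from means of 3 libraries, which cannot decide whether the numbers pair the samples. With the replicate number as a block, 0 members were called by edgeR in the 7 comparisons, with 8, 7, 8, 2, 4, 2 and 1 at an unadjusted p below 0.05 (in the order ACTB-WT and ACTB-mut against Actin KO, ACTB-mut against ACTB-WT, KO1, KO2 and their mean against SETD3 CT, and KO2 against KO1, here and in the next counts). The share of all genes at that unadjusted p was not counted for this fit. Over all genes the calls of edgeR in the actin table fell with the block from 155, 128 and 172 to 89, 85 and 83, and DESeq2 made 358, 365 and 446. In the SETD3 table edgeR called 2, 8, 6 and 4 genes, 0, 1, 0 and 3 with the block, and DESeq2 65, 90, 92 and 56. Leaving out both of the shallowest libraries was chosen after seeing the data.

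Of 1350 alternative values of single members, 1 gained a call (MRPL51 by DESeq2, 0.47) and 16 changed sign, all of members whose first values did not pass the threshold. Leave-one-out ranges of the log2 change crossed 0 for MRPS14 in ACTB-WT against Actin KO (-3.31 to 0.26) and MRPS36 in ACTB-mut against ACTB-WT (-0.0055 to 0.25). In KO1 against SETD3 CT they did so for MRPS18C (-0.65 to 0.40), MRPL47 (-6.12 to 1.54), MRPS36 (-0.11 to 0.57) and MRPS31 (-1.23 to 0.0032). They did so too for MRPS31 in KO2 against SETD3 CT (-0.025 to 1.46), MRPL50 in KO2 against KO1 (-0.46 to 2.87), and, for the mean of the lines, MRPL30 (-0.63 to 0.032) and MRPL47 (-2.87 to 1.02). Limma-voom gave -0.46 for MRPL50 in ACTB-mut against ACTB-WT (leave-one-out 0.39 to 1.61), and -1.85 (KO1) and -0.94 (mean) for MRPL47, for which the replicate block gave -0.47 in KO1. MRPS36 was at -0.18 with GC and length offsets in ACTB-mut against ACTB-WT and at -0.10 in KO1 without both shallow libraries. The cause of these changes of sign was not tested.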
